A study of Homo sapiens with 5 samples.

Results

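The 10 genes described here are those of the effector end of the Hippo pathway: the coactivators YAP1 and WWTR1 (the gene of TAZ), the transcription factor TEAD1, the kinases LATS1 and LATS2, the target genes CTGF, CYR61 and ANKRD1, and the angiomotin-like genes AMOTL1 and AMOTL2. They were chosen by name, with earlier results of these data known, from the 26485 genes of the RNA-seq count table, and all 10 were among the 14187 genes that passed the filter on low counts. RNA-seq was performed on RPE1 cells, an hTERT-immortalized human retinal pigment epithelial line of wild-type genotype, after 18 h with the solvent DMSO (2 libraries) or with doxorubicin, a topoisomerase II poison that is used in chemotherapy. The drug was given at 0.2 μM in 2 libraries and at 0.34 μM in 1 library, and no group carried any other agent or allele. The sample labels give these concentrations, while their treatment protocol writes 200 and 340 uM. The study's methods call the libraries biological replicates, so the p-values measure the spread between cultures of 1 line. The main fit had no term for the replicate number and none for the concentration of the drug. A difference that libraries of the same number share is therefore part of that spread, and so is a difference between the concentrations. A fit with a term for the replicate number is given in the last section.

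In the Hippo pathway, LATS kinases phosphorylate YAP and TAZ, which keeps these coactivators in the cytoplasm and marks them for degradation. When they are not phosphorylated, YAP and TAZ enter the nucleus and bind TEAD factors, which recognize a short DNA motif in front of genes such as CTGF, CYR61 and ANKRD1. Angiomotins hold YAP at junctions and actin filaments and assist LATS, and several of these regulators, AMOTL2 and LATS2 among them, are themselves known YAP targets. YAP activity is controlled largely by phosphorylation and localization, which mRNA counts do not measure.

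The upstream sequences of CTGF and ANKRD1 are shown because the largest differences among the target genes concern them, and those of YAP1 and AMOTL2 because they were the other members with the TEAD motif. Each is the 250 bases before the RefSeq start site (GRCh38.p14), 5′ to 3′ on the strand of the gene, and capitals mark the TEAD motif GGAATG or its reverse complement CATTCC, searched on both strands.
CTGF, chr6:131951373-131951622, minus strand: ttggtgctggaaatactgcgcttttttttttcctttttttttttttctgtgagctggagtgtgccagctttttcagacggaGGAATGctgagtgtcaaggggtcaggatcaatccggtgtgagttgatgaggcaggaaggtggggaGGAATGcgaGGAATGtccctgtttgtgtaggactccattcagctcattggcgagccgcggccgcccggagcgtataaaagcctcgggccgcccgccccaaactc
ANKRD1, chr10:90921088-90921337, minus strand: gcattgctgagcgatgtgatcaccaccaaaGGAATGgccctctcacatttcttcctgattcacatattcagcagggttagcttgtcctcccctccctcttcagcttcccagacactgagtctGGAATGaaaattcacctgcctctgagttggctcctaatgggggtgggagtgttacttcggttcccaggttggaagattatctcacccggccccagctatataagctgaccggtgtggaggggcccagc
YAP1, chr11:102110197-102110446, plus strand: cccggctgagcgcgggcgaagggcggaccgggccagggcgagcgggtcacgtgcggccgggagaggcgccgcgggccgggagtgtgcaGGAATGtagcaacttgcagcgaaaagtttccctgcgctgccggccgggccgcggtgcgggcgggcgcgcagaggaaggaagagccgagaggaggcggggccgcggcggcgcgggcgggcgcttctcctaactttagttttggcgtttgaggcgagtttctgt
AMOTL2, the inner of 2 start sites, chr3:134374448-134374697, minus strand: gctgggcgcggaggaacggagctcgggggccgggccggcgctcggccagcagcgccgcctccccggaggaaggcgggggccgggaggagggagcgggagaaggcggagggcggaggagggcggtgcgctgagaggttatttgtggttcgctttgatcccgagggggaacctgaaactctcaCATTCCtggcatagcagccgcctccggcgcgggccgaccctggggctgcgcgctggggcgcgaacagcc

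CTGF held 3 copies of the motif, starting at -169, -104 and -95 from the start site (the base before it is -1), all on the gene's strand. ANKRD1 held 2 copies, at -220 and -128. It also had 1 match, TGATTCA at -195, to the pattern TGANTCA, which reads the same on both strands. This pattern is a loose form of the AP-1 motif, since its middle base N was left free. YAP1 held 1 copy at -162. AMOTL2 held 1 copy on the opposite strand at -69 of its inner start site, while the window of its outer start site held none. Of 35116 RefSeq windows of the same length, 11.9% held the TEAD motif at least once, 0.940% at least 2 times and 0.0826% at least 3 times. The loose pattern TGANTCA was found in 6.57% of them. RefSeq windows were found for 8 of the 10 members, 11 windows in all, of which 4 held the TEAD motif. The windows of WWTR1, LATS1, LATS2 and AMOTL1 held no copy of the TEAD letters. A second start site of LATS1 had a match to TGANTCA, with the letters TGAATCA, at -245. The CArG box, the motif of serum response factor, was found in 1.16% of all windows and in none of the 11 windows of these 8 members. These matches are a description of letters and not of bound sites.

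The total count per library was between 23773061 and 36725345, and levels are given as CPM, counts scaled to the library total with TMM normalization factors between 0.975 and 1.04. Differences between doxorubicin (3 libraries, both concentrations) and DMSO (2 libraries) were assessed by the quasi-likelihood test of edgeR, with p-values adjusted by Benjamini-Hochberg over all genes tested and a threshold of 0.01. The treatment was visible in CDKN1A and MDM2, the p53 targets for p21 and the p53 ligase, which rose by 3.39 (edgeR adjusted p = 0.000768) and 2.19 (edgeR adjusted p = 0.00246) on the log2 scale. The proliferation genes MKI67 and CCNB1 fell by 4.65 (edgeR adjusted p = 0.000694) and fell by 3.87 (edgeR adjusted p = 0.00181) on that scale. Of the markers of retinal pigment epithelium, MITF and OTX2 were at 23.5 to 56.7 CPM, while RPE65, RLBP1 and TYR were at no more than 0.305 CPM in any library, so these defining visual cycle and pigment genes were near 0. BEST1 (0.548 to 0.992 CPM in DMSO, 1.25 to 3.91 in doxorubicin) and PMEL (0.196 to 0.267 and 0.851 to 1.33 CPM) were low but higher in every doxorubicin library, edgeR called none of the 5 tested markers and DESeq2 called PMEL, and SERPINF1 overlapped between the groups at 0.155 to 1.14 CPM. The epithelial keratins KRT8 and KRT18 summed to 583 and 696 CPM in DMSO and to 969.9 to 1176 CPM in doxorubicin, neither gene overlapped between the groups, and edgeR called 0 and DESeq2 1 (KRT8) of the 2. The summed markers of blood (0.191 to 0.274 CPM in DMSO, 1.01 to 2.20 in doxorubicin), endothelium (0.381 to 2.62 and 1.01 to 3.53 CPM) and muscle (0 to 0.572 and 0.125 to 0.155 CPM) were low. Of the blood markers 1 was tested, and it was higher in doxorubicin without overlap (log2 fold change 2.86). It was not called by edgeR but was called higher by DESeq2, which called 6.37% of all genes higher. Fewer cells of a kind and less RNA per cell cannot be told apart in these bulk libraries.

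None of the 10 members passed the threshold in edgeR's test, where 4.02% of all genes tested passed (1.29% higher and 2.73% lower). DESeq2, the tool of the study, called 2 of the 10 members, ANKRD1 and AMOTL2, both higher, against 14.1% of all genes in either direction, 6.37% higher and 7.72% lower. limma voom called 0 members, against 3.71% of all genes. At an unadjusted edgeR p under 0.05 there were 5 members (YAP1, WWTR1, CTGF, ANKRD1 and AMOTL2), against 30.8% of all genes. The DMSO and doxorubicin libraries did not overlap for 6 members, 5 of them higher and 1 lower in doxorubicin, where 47.7% of all genes tested did not overlap (24.3% higher and 23.4% lower). The median log2 fold change of the members was 0.25, beside 0.01 for all genes tested, with 7 estimates above 0 and 3 below. The counts at the unadjusted p and without overlap were thus 1 to 2 genes of 10 above these backgrounds, and no test was made of the list.

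**Figure D1:**
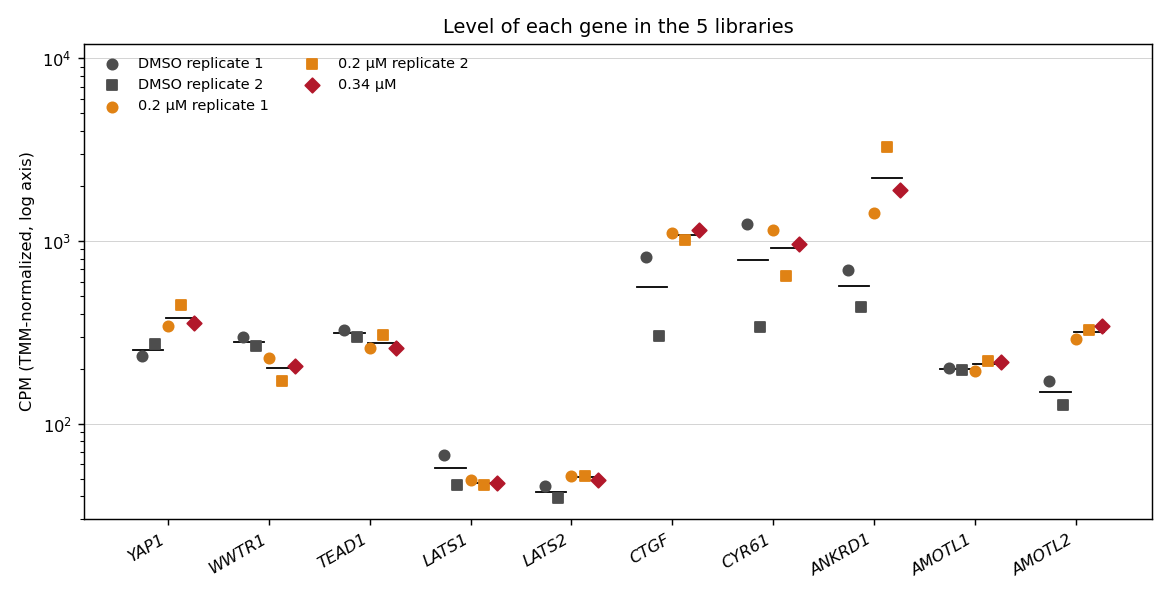
TMM-normalized CPM (log axis) of the 10 genes in each library, with DMSO in gray, 0.2 μM doxorubicin in orange and 0.34 μM in red; circles and squares are replicates 1 and 2, and short lines are the means of the DMSO and the doxorubicin libraries. AMOTL2, ANKRD1, CTGF, YAP1 and LATS2 were higher in all 3 doxorubicin libraries than in both DMSO libraries, WWTR1 was lower, and the DMSO libraries of CTGF and CYR61 lay far apart.

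The estimates of the 2 coactivator genes had opposite signs, and neither passed the threshold. YAP1 (chr11:102110447-102233424) had 235 and 272 CPM in DMSO replicates 1 and 2, 341 and 445 CPM in 0.2 μM replicates 1 and 2, and 357 CPM at 0.34 μM. Every doxorubicin library was above both DMSO libraries, by 1.25 to 1.90 fold over the 6 library ratios. The log2 fold change was 0.59 (SE 0.18, 95% interval 0.15 to 1.02), which did not pass the threshold (edgeR adjusted p = 0.0787). WWTR1 (chr3:149517235-149724788) had 297 and 265 CPM in DMSO, 228 and 172 CPM at 0.2 μM and 207 CPM at 0.34 μM. Here every doxorubicin library was below both DMSO libraries, with a log2 fold change of -0.47 (SE 0.17, 95% interval -0.88 to -0.06, edgeR adjusted p = 0.118). The ratio of YAP1 to WWTR1 counts within a library was 0.791 and 1.03 in DMSO, against 1.49, 2.59 and 1.72 in doxorubicin. The library with the highest ratio, 0.2 μM replicate 2, had both the highest YAP1 and the lowest WWTR1 level. The difference of the mean log2 ratios was 1.06, and the exact two-sided permutation test gave p = 0.2, the smallest that 3 against 2 libraries allow.

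TEAD1 (chr11:12674421-12944737), the DNA-binding partner of both coactivators, showed a difference within the spread. Its level was 325 and 299 CPM in DMSO, 260.1 and 306 CPM at 0.2 μM and 259.9 CPM at 0.34 μM. The groups overlapped through 0.2 μM replicate 2, and the log2 fold change was -0.18 (SE 0.15, 95% interval -0.55 to 0.18, edgeR adjusted p = 0.471).

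The kinase genes LATS1 and LATS2 did not pass the threshold in either direction. LATS1 (chr6:149658153-149718101) had 67.7 and 46.2 CPM in DMSO, 49.0 and 46.0 CPM at 0.2 μM and 47.5 CPM at 0.34 μM, so only DMSO replicate 1 stood apart from the other libraries. Its log2 fold change of -0.26 (SE 0.19, 95% interval -0.72 to 0.19, edgeR adjusted p = 0.404) became 0.03 without that library. LATS2 (chr13:20973036-21061586) had 45.4 and 39.3 CPM in DMSO, 51.5 and 51.9 CPM at 0.2 μM and 49.1 CPM at 0.34 μM. The LATS2 groups did not overlap, but the log2 fold change of 0.26 (SE 0.15, 95% interval -0.09 to 0.62) did not pass the threshold (edgeR adjusted p = 0.279). LATS2 to LATS1 count ratios were 0.670 and 0.850 in DMSO and 1.05, 1.13 and 1.03 in doxorubicin, without overlap (difference of mean log2 ratios 0.50, exact two-sided permutation p = 0.2, the smallest possible).

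ANKRD1 (chr10:90912096-90921087), which encodes an ankyrin repeat protein and whose TEAD motifs are printed above, had the largest fold change of the members. It had 695 and 436 CPM in DMSO, 1424 and 3286 CPM at 0.2 μM and 1908 CPM at 0.34 μM. All 3 doxorubicin libraries were above both DMSO libraries, by between 2.05 and 7.54 fold, and the means were 565 ± 183 CPM (SD, n = 2) and 2206 ± 966 CPM (SD, n = 3). The log2 fold change was 1.96 (SE 0.41, 95% interval 0.99 to 2.94), with an edgeR adjusted p of 0.0258 and a DESeq2 adjusted p of 2.5e-06. Between libraries of one condition, ANKRD1 was 1.59 fold higher in DMSO replicate 1 than in replicate 2 and lower in 0.2 μM replicate 1 than in replicate 2 by 1.21 on the log2 scale. A gap as large as the latter was found between these 2 libraries in 6.76% of all genes tested.

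CTGF (chr6:131948176-131951372), also named CCN2, encodes a secreted matricellular protein and is the member with 3 TEAD motifs in its window. Its level was 813 and 302 CPM in DMSO, 1100.1 and 1009.6 CPM at 0.2 μM and 1148 CPM at 0.34 μM. The doxorubicin libraries lay close together (1086 ± 70.4 CPM, SD, n = 3) and above both DMSO libraries, which themselves differed 2.70 fold (558 ± 362 CPM, SD, n = 2). A gap as large between the DMSO libraries was found in 5.58% of all genes tested. The log2 fold change of 0.96 (SE 0.39, 95% interval 0.03 to 1.90) did not pass the threshold (edgeR adjusted p = 0.152, DESeq2 adjusted p = 0.0467). Its size rested on the DMSO library used, since with DMSO replicate 1 as the only control it was 0.40 (edgeR adjusted p = 0.164), and with DMSO replicate 2 as the only control it was 1.84 (edgeR adjusted p = 0.00941, with the spread taken from the doxorubicin libraries alone and assumed to hold for the lone control).

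CYR61 (chr1:85580761-85583950), also named CCN1 and related to CTGF in sequence and function, did not separate the groups. Its level was 1233 and 339 CPM in DMSO, 1150.0 and 641 CPM at 0.2 μM and 967 CPM at 0.34 μM. DMSO replicate 1 was the highest of the 5 libraries and DMSO replicate 2 the lowest, a 3.64 fold gap that was reached by 3.03% of all genes tested. The log2 fold change was 0.23 (SE 0.52, 95% interval -1.01 to 1.46, edgeR adjusted p = 0.809), and the estimate was -0.44 once DMSO replicate 2 was left out and 1.43 once DMSO replicate 1 was left out (edgeR adjusted p = 0.0758). The ratio of CTGF to CYR61 counts was 0.660 and 0.890 in DMSO and 0.957, 1.57 and 1.19 in doxorubicin, without overlap (difference of mean log2 ratios 0.66, exact two-sided permutation p = 0.2, the smallest possible).

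**Figure D2:**
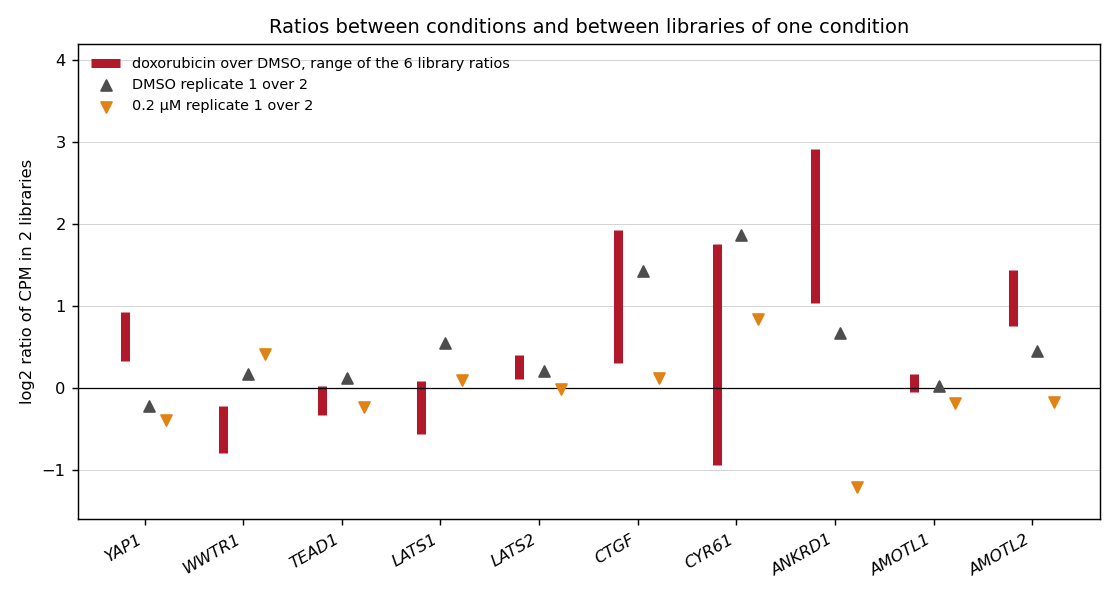
Log2 ratios of CPM between 2 libraries for each gene: the red bar spans the 6 ratios of a doxorubicin library to a DMSO library, the gray triangle is DMSO replicate 1 over 2 and the orange triangle is 0.2 μM replicate 1 over 2. For CYR61 the bar crosses 0, from -0.94 to 1.76, and the gap between the DMSO libraries is 1.86, while the bars of AMOTL2 (0.76 to 1.44) and ANKRD1 (1.04 to 2.91) lie above the gaps between their DMSO libraries, although 0.2 μM replicate 1 of ANKRD1 is at -1.21 against replicate 2.

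Of the angiomotin-like genes, AMOTL2 separated the groups and AMOTL1 did not. AMOTL2 (chr3:134355345-134375417) had 172 and 126 CPM in DMSO, 290.1 and 325 CPM at 0.2 μM and 341 CPM at 0.34 μM. The doxorubicin libraries were all above the DMSO libraries, by 1.69 to 2.71 fold (149 ± 32.4 CPM, SD, n = 2, and 319 ± 26.0 CPM, SD, n = 3). With a log2 fold change of 1.10 (SE 0.19, 95% interval 0.64 to 1.55) it had the smallest p of the members, close to the threshold in edgeR (adjusted p = 0.0142) and past it in DESeq2 (adjusted p = 4.1e-06). AMOTL1 (chr11:94706460-94876748) had 201 and 196 CPM in DMSO, 194 and 221 CPM at 0.2 μM and 218 CPM at 0.34 μM. Its groups overlapped, and the interval of its log2 fold change of 0.09 (SE 0.14, 95% interval -0.25 to 0.43, edgeR adjusted p = 0.722) lies below the AMOTL2 estimate. AMOTL2 to AMOTL1 count ratios were 0.856 and 0.641 in DMSO and 1.50, 1.47 and 1.56 in doxorubicin (difference of mean log2 ratios 1.03, exact two-sided permutation p = 0.2, the smallest possible). Among the 4 ratios examined, for which the adjusted p was the same 0.2, this one had the narrowest doxorubicin values. None of the 4 overlapped between the groups. How often ratios of other gene pairs do not overlap was not examined, while 47.7% of single genes tested did not.

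**Figure D3:**
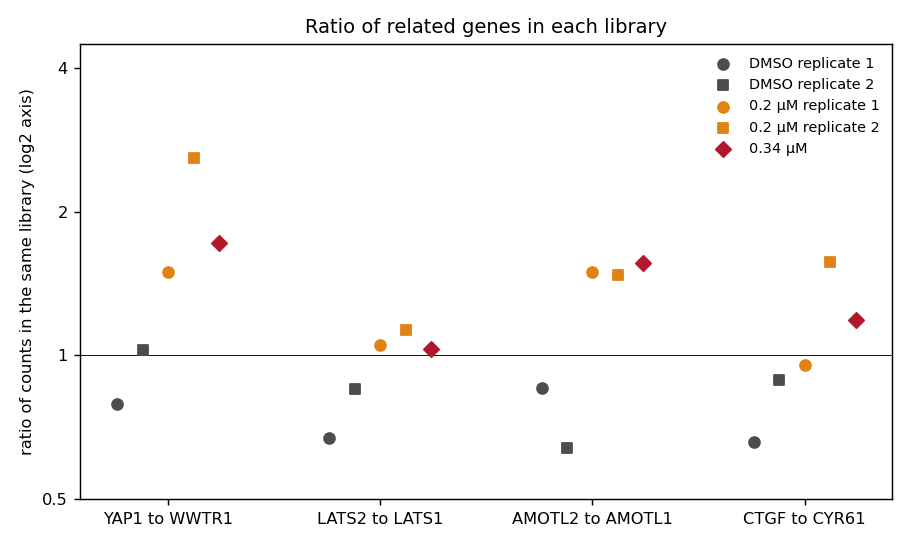
Ratio of counts of 2 related genes within each library (log2 axis), for YAP1 to WWTR1, LATS2 to LATS1, AMOTL2 to AMOTL1 and CTGF to CYR61. In each pair the 3 doxorubicin libraries (orange and red) lie above the 2 DMSO libraries (gray), with AMOTL2 to AMOTL1 at 1.47 to 1.56 against 0.641 and 0.856. Whether they lie above or below depends on which gene is the divisor. The share of other gene pairs without overlap was not examined, and for single genes it was 47.7% of all genes tested.

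**Figure D4:**
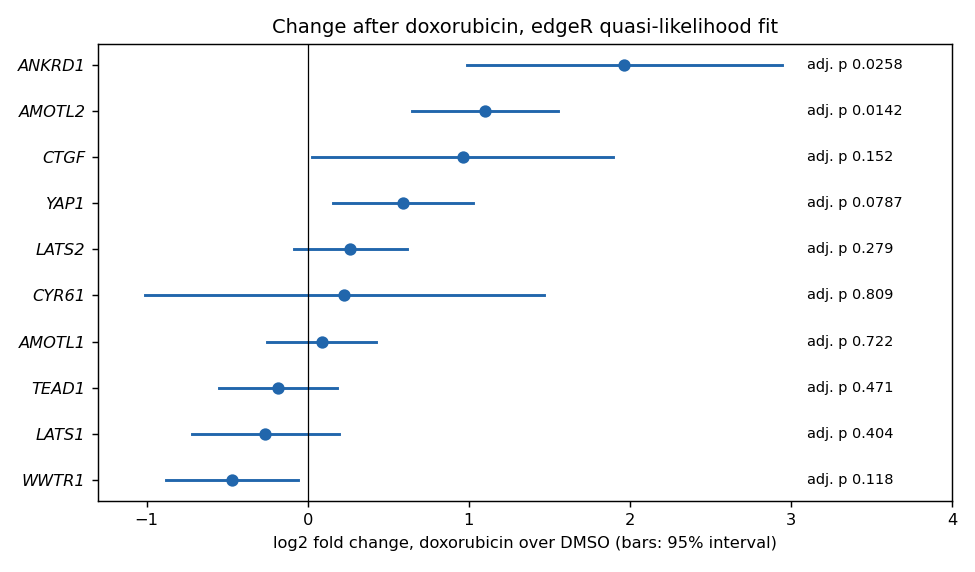
Log2 fold change of each gene, doxorubicin over DMSO, from edgeR's quasi-likelihood fit of 3 against 2 libraries; points are estimates, bars are 95% intervals and the adjusted p over all genes tested is at the right. The intervals of ANKRD1, AMOTL2, CTGF, YAP1 and WWTR1 lie on one side of 0, and no adjusted p is below 0.01.

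For the 2 concentrations the estimates of single members are given side by side. Against DMSO, the log2 fold changes at 0.2 μM and 0.34 μM were 0.63 and 0.50 for YAP1, -0.49 and -0.44 for WWTR1, 0.92 and 1.04 for CTGF, 2.06 and 1.75 for ANKRD1, and 1.05 and 1.20 for AMOTL2. Both sets share the DMSO libraries. Over all genes the 0.34 μM library was closer to 0.2 μM replicate 1 (chi-square per degree of freedom 9.01) than 0.2 μM replicate 2 was to either (75.3 and 74.1), and the part of this in the contrast of the concentrations was not tested. In the direct contrast of 0.34 μM minus 0.2 μM no member passed the threshold with edgeR or DESeq2 and none had an unadjusted edgeR p under 0.05, while 0% of all genes passed in edgeR and 0.155% had such a p. The difference was least precise for CYR61 (95% interval -1.56 to 1.79) and ANKRD1 (-1.58 to 0.97), and for AMOTL2 the interval was -0.56 to 0.86. Since the higher concentration had 1 library, which was assumed to vary like the others, intervals this wide do not show that the concentrations act alike.

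Per kilobase of the canonical transcript, the target genes were expressed far above their regulators. In DMSO the levels were 345 ± 277 CPM per kb for CYR61, 316 ± 102 for ANKRD1 and 238 ± 155 for CTGF (SD, n = 2), whose ranges overlapped. They were followed by WWTR1 (55.7 ± 4.52 CPM per kb) and YAP1 (46.9 ± 4.90), which did not overlap, then TEAD1 (33.2 ± 1.98) and AMOTL2 (30.6 ± 6.65), which did, and AMOTL1 (22.1 ± 0.324). LATS1 and LATS2 were lowest and overlapped, with 7.74 ± 2.07 and 7.63 ± 0.779 CPM per kb. In doxorubicin ANKRD1 was first with 1232 ± 539.7 CPM per kb (SD, n = 3), from 796 to 1836, above CTGF (464 ± 30.1) and CYR61 (404 ± 113), which overlapped. YAP1 (70.6 ± 10.4 CPM per kb) and AMOTL2 (65.5 ± 5.33) came next and overlapped, and both stood above WWTR1 (40.2 ± 5.67). TEAD1 (29.2 ± 2.80 CPM per kb), AMOTL1 (23.5 ± 1.65), LATS2 (9.17 ± 0.276) and LATS1 (6.45 ± 0.207) followed in this order without overlap between neighbours. Thus YAP1 was below WWTR1 in both DMSO libraries on this per-length scale and above it in all 3 doxorubicin libraries. In DMSO replicate 2 they were close, at 50.4 CPM per kb for YAP1 and 52.5 for WWTR1. Without division by length YAP1 was the higher there (272 and 265 CPM), so the order in that library depends on the transcript lengths used.

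Together the members took 0.401% and 0.242% of the counts in DMSO and 0.496%, 0.658% and 0.544% in doxorubicin. The 3 target genes CTGF, CYR61 and ANKRD1 held most of this share in 4 of the 5 libraries and varied more than the rest, with 0.269% and 0.112% in DMSO against 0.358%, 0.499% and 0.398%. The other 7 members held 0.132% and 0.130% in DMSO and between 0.138% and 0.158% in doxorubicin.

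Of the 77 tested genes on lists of other pathway members, 2 passed edgeR's threshold, both higher, and 12 passed DESeq2's, 8 higher and 4 lower. These are 2.60% and 15.6% of the list genes, beside 4.02% and 14.1% of all genes. The junction gene AJUBA, a LIM protein that inhibits LATS, had 109 and 124 CPM in DMSO, 282 and 366 CPM at 0.2 μM and 326 CPM at 0.34 μM, and rose by 1.48 on the log2 scale (SE 0.18, edgeR adjusted p = 0.00431). FHL2, a LIM-domain cofactor listed with the targets of SRF and its coactivator MRTF, had 209 and 192 CPM in DMSO, 581 and 567 CPM at 0.2 μM and 583 CPM at 0.34 μM, and rose by 1.53 (SE 0.15, edgeR adjusted p = 0.00211). For both genes the doxorubicin libraries lay well above DMSO, yet AJUBA passed the threshold in none of the 5 fits with 1 library left out (edgeR adjusted p = 0.0133 to 0.0218), and FHL2 passed in 2 of them, without DMSO replicate 1 and without 0.2 μM replicate 2 (edgeR adjusted p = 0.00915 to 0.0142 over the 5 fits).

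Among the Hippo kinases and scaffolds, 0 of 22 tested genes passed in edgeR (4.02% of all genes did), with a median log2 fold change of -0.13 and 14 estimates below 0, and DESeq2 called 3 lower (STK3, MAP4K4 and RASSF1), where it called 7.72% of all genes lower. MAP4K4, a kinase that acts on LATS beside the MST kinases, had 530.4 and 443 CPM in DMSO, 322 and 281 CPM at 0.2 μM and 317 CPM at 0.34 μM (log2 fold change -0.67, SE 0.16, edgeR adjusted p = 0.0396). RASSF1, an adaptor of the MST kinases, had 10.1 and 17.0 CPM in DMSO and 5.36 to 6.84 CPM in doxorubicin (log2 fold change -1.12, SE 0.28, edgeR adjusted p = 0.0442). Both genes separated the groups without passing the edgeR threshold.

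Among the TEAD paralogs and the VGLL cofactors that compete for TEAD, 0 of 5 tested genes passed in edgeR (4.02% of all genes did), with a median of -0.07. TEAD2 had 50.7 and 42.5 CPM in DMSO and 20.5 to 30.4 CPM in doxorubicin (log2 fold change -0.86, SE 0.21, edgeR adjusted p = 0.0394). DESeq2 called TEAD2 lower, as it did 7.72% of all genes. TEAD4 overlapped between the groups (12.6 and 20.6 CPM against 12.1 to 14.2, edgeR adjusted p = 0.421). In the junction list AJUBA was the single edgeR call of 14 tested genes, 7.14% beside 4.02% of all genes. The median was 0.08, and the polarity gene SCRIB, next by p, had a log2 fold change of 0.90 (SE 0.29, edgeR adjusted p = 0.0904).

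Of 17 other YAP and TAZ targets, 0 passed in edgeR (median 0.20, 11 estimates above 0), while DESeq2 called 4 higher, namely F3 (tissue factor), IGFBP3, GADD45A and NUAK2, beside backgrounds of 4.02% in edgeR and 6.37% higher in DESeq2. Levels of F3 were 410 and 184 CPM in DMSO and 608 to 775 CPM in doxorubicin (edgeR adjusted p = 0.0588). Those of IGFBP3 were 448 and 214 CPM in DMSO and 595 to 723 CPM in doxorubicin (edgeR adjusted p = 0.0792). In this list 13 genes were lower in DMSO replicate 2 than in replicate 1 (76.5% beside 49.3% of all genes). In the 0.2 μM pair, 10 genes were lower in replicate 2 (58.8% beside 47.8%). The part of this in the estimates was not tested. GADD45A, a stress gene that is also a p53 target, had 75.9 and 34.1 CPM in DMSO, 129 and 155 CPM at 0.2 μM and 143 CPM at 0.34 μM (log2 fold change 1.37, SE 0.33, edgeR adjusted p = 0.0403). NUAK2, a kinase of the AMPK family, had 4.23 and 2.23 CPM in DMSO and 9.19 to 12.8 CPM in doxorubicin (log2 fold change 1.71, SE 0.35, edgeR adjusted p = 0.0231). In the CCN family beside CTGF and CYR61, 2 of 4 genes were tested and neither passed in edgeR. NOV (CCN3) had 32.4 and 43.0 CPM in DMSO and 56.5 to 88.2 CPM in doxorubicin (log2 fold change 0.95, SE 0.24, edgeR adjusted p = 0.0442), was higher in all 3 treated libraries and was called by DESeq2, whereas WISP2 was at 1.07 CPM or less in every library (edgeR adjusted p = 0.531).

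The SRF and MRTF targets, actin cytoskeleton genes whose regulation often runs parallel to that of YAP targets, had a median of 0.33. FHL2 was the 1 edgeR call of 17 tested genes, 5.88% beside 4.02% of all genes. DESeq2 called FHL2 and FLNA higher, where it called 6.37% of all genes higher. FLNA, the actin crosslinker filamin A, had 4826 and 4640.3 CPM in DMSO, 10635 and 7271 CPM at 0.2 μM and 11267 CPM at 0.34 μM (log2 fold change 1.04, SE 0.24, edgeR adjusted p = 0.0342). All 17 tested genes of this list were lower in DMSO replicate 2 than in DMSO replicate 1 and all 17 were lower in 0.2 μM replicate 2 than in 0.2 μM replicate 1, beside 49.3% and 47.8% of all genes tested. Their summed level was 39584 and 24396 CPM in DMSO, 49872 and 30881 CPM at 0.2 μM and 48140.1 CPM at 0.34 μM. Among the members, 9 of 10 were lower in DMSO replicate 2 than in replicate 1 and 4 of 10 were lower in 0.2 μM replicate 2 than in replicate 1. CYR61 and CTGF were lower in both replicates 2. For CTGF the log2 ratio of replicate 1 to 2 was 1.43 in the DMSO pair and 0.12 in the 0.2 μM pair. ANKRD1 was highest in 0.2 μM replicate 2. The part of these library differences in the members' values was not tested.

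**Figure D5:**
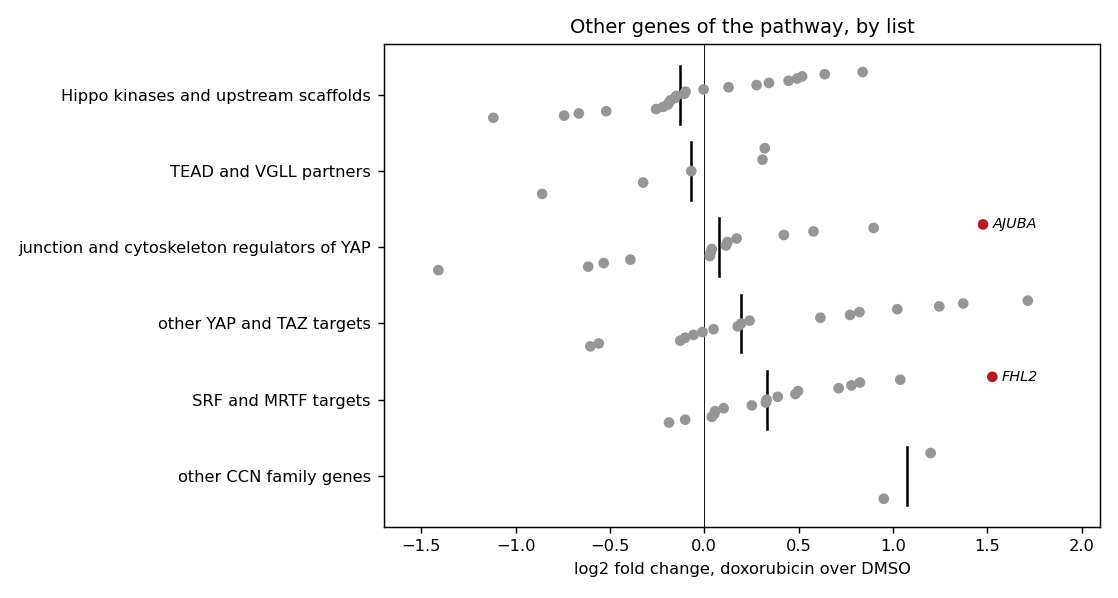
Log2 fold change, doxorubicin over DMSO, of each tested gene of the 6 pathway lists; red points passed an edgeR adjusted p of 0.01, gray points did not, and vertical lines are list medians. The medians run from -0.13 for the Hippo kinases to 0.33 for the SRF and MRTF targets, with 1.08 for the 2 tested CCN genes, and AJUBA and FHL2 are the 2 red points.

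The genes whose log2 CPM over the 5 libraries, centred on their own mean, were nearest to CTGF were PPP1R3C, CTF1 and SYNPO, with root mean square differences of 0.0633, 0.0688 and 0.0717. SYNPO had 259 and 103 CPM in DMSO, 381 and 332 CPM at 0.2 μM and 424 CPM at 0.34 μM, thus with DMSO replicate 2 as the lowest library, as in CTGF. Nearest to CYR61 were SBSN, APOL3 and RAPGEF4, at 0.0641, 0.0817 and 0.108, all with low counts of between 4 and 41 per library. These are likenesses over 5 libraries, chosen as the nearest of 14187 genes.

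Reads of a member and of a gene that overlaps it may not be told apart, since the sources used here do not state whether the counting used strand. RefSeq places antisense or other genes overlapping 8 of the 10 members, among them CCN2-AS1 at CTGF, WWTR1-AS1 at WWTR1, TEAD1-AS1 at TEAD1 and YAP1-DT at YAP1, and none at CYR61 and ANKRD1.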

How the data were processed

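RNA-seq libraries of 5 RPE1 cultures were analysed, 2 with DMSO, 2 with 0.2 μM and 1 with 0.34 μM doxorubicin. The deposited values are raw read counts per gene, which the authors made as follows: poly-A RNA was sequenced as paired ends, mapped to hg38 with STAR and counted with featureCounts of Rsubread on the iGenomes annotation, per the study's methods and the submitters' processing notes. The sources used here do not give versions, the strand setting or the treatment of multi-mapped reads. A deposited table of the authors' DESeq2 comparison (mean, fold change, statistic and p-values) was not used, and the ChIP-seq and Hi-C data were not analysed here.

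Tests were run in R 4.3.3 by edgeR 4.0.16 (TMM, default filter at 10 counts and a total of 15, quasi-likelihood test, no covariates). The standard error was taken from the size of the log2 fold change over the root of F. DESeq2 1.42.0 and limma 3.58.1 were alternatives, beside other normalizations, filters, thresholds, single concentrations, thinning to the shallowest library, a replicate block and leaving out each library. The concentrations were compared by a contrast after fitting 3 conditions. Ratios were tested with an exact permutation test (scipy 1.17.1). The fit was tested on simulated data with known changes. The simulated libraries were drawn independently, with no difference shared by replicate number, so they do not test the fit under such a difference. Libraries of one condition differed far beyond sampling noise (chi-square per degree of freedom 117 for DMSO and 75.3 for 0.2 μM, beside 9.01 and 74.1 for 0.34 μM against 0.2 μM replicates 1 and 2), so each was counted as a separate sample. The 0.34 μM library was nearer to 0.2 μM replicate 1 than the libraries of one condition were to each other. Whether they share a culture or day is not stated in the labels. The doxorubicin libraries may thus not be equally independent. Groups come from the sample labels, which number only the second libraries of DMSO and 0.2 μM; the unnumbered ones are called replicate 1.

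All 10 members are named. Of each pathway list, the genes past the threshold are named, or the 2 with the smallest p where fewer than 2 passed. STK3, F3 and IGFBP3 are named beyond this rule, as calls of DESeq2, after their values were seen. The members and lists were chosen with earlier results of these data known. Gene positions and promoters are from RefSeq (GRCh38.p14), where TEAD1 and CYR61 had no promoter entry, and lengths are those of Ensembl canonical transcripts in GENCODE.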

Additional observations from a re-analysis of the deposited data

How the results depend on the processing

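The 2 DMSO libraries limit the precision, and the 0.34 μM library has no replicate. For the single members, 140 of 150 alternative values kept their direction and side of the threshold. CTGF passed without DMSO replicate 1 (1.84, with 1 control library that was assumed to vary like the doxorubicin libraries), and 2 values reversed: LATS1 without DMSO replicate 1 (0.032, over a range of -0.53 to 0.032 with 1 library left out) and CYR61 without DMSO replicate 2 (-0.44, range -0.44 to 1.43). The number of members called was 2 instead of 0 with DESeq2, without the filter on low counts and at an adjusted p of 0.05 (ANKRD1 and AMOTL2 each time), and 0 to 1 with 1 library left out. The number of all genes called was 571, and it was 2026 with DESeq2, 1020 without the filter, 1927 at 0.05, 171 for 0.2 μM alone, 89 for 0.34 μM alone and 49 to 215 with 1 library left out, where fewer libraries enter. The number of pathway list genes called was 2, and it was 12 with DESeq2, 9 at 0.05, 0 for either concentration alone and 0 to 2 with 1 library left out. Other normalizations, limma voom, a minimum of 1 CPM and thinning left these counts within 1.5 times. Apart from the constructions named, the cause was not tested. DMSO and 0.2 μM libraries share at most a replicate number, which the labels give only for replicate 2 while number 1 was assigned to the unnumbered libraries, and with these 2 pairs their deviations correlated across 14187 genes (r = 0.528). With the number as a replicate block and without the 0.34 μM library, 1249 genes, 10 list genes and 3 members were called: CTGF (log2 fold change 1.09, edgeR adjusted p = 0.00676), ANKRD1 (1.98, 0.000141) and AMOTL2 (1.07, 0.00267). This fit rests on the 2 pairs alone, which leave very little to estimate the spread from. The log2 ratios of 0.2 μM to DMSO in replicates 1 and 2 were 0.44 and 1.74 for CTGF. They were 1.04 and 2.91 for ANKRD1, and 0.76 and 1.37 for AMOTL2. In the comparison of the concentrations no member passed under any of the 3 alternatives.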
